A study of Mus musculus with 6 samples.

Results

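Crabp1 and 8 further genes of retinoic acid signalling, Crabp2, Rara, Rarb, Rarg, Rxra, Aldh1a1, Aldh1a3 and Cyp26b1, were followed across 6 RNA-seq libraries. These 9 genes of the 54532 in the expression table were picked by symbol, with Crabp1 taken for its place among the largest falls between the groups compared, so their differences between those groups are given as a description, without a test. The cells were labelled vascular smooth muscle cells and, per the study's methods, came from the abdominal aortas of young adult wild-type mice. 3 libraries, Ad-Con, carried the genotype label WT and had received an adenoviral vector with a control plasmid. The other 3, Ad-PDK4, carried the genotype label pyruvate dehydrogenase kinase 4 overexpression and had received the vector with a plasmid for that mitochondrial kinase. According to the study, both groups were exposed to angiotensin II, which the sample labels do not give. The study's methods describe a PDK4 sequence cloned into a vector named pEnCMV. They do not name its promoter or say whether that vector was the one used for these adenoviral samples. No pooling of animals was found in the sources used here. The study calls the samples of a group biological replicates, the labels do not say whether they were separate cultures or animals, and p-values measure the spread between these samples.

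Retinoic acid is made from vitamin A. Retinol is taken up and oxidised to retinaldehyde by retinol dehydrogenases, and retinaldehyde dehydrogenases such as ALDH1A1 and ALDH1A3 make retinoic acid from it. In the cytoplasm CRABP1 and CRABP2 bind retinoic acid, CYP26 enzymes break it down, and in the nucleus receptors of the RAR family, paired with RXR, bind it and switch target genes. In vascular smooth muscle retinoic acid is known mainly for restraining proliferation and favouring the contractile state.

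Levels are in FPKM, fragment counts scaled to gene length and a library size, which sets genes of different length on a common scale. The library size in these values was not the read total. It followed the median-of-ratios size factor, the median over genes of a library's reads relative to the average library. Reads are the whole fragment counts recovered from those values, and the libraries held between 17588942 and 21861872 of them. Differences are log2 fold changes (log2FC) on log2(FPKM + 0.1), Ad-PDK4 over Ad-Con, with the standard error (SE) from limma. This scale understates changes of low genes. A gene was tested if its mean was at least 0.5 FPKM over the 6 libraries, and called if its Benjamini-Hochberg adjusted p was below 0.05 and its fold was at least 2. Pdk4 itself was lower in the libraries labelled Ad-PDK4, at 7.48 ± 0.162 against 10.0 ± 0.469 FPKM (SD, n = 3, log2FC -0.42, limma adjusted p = 0.0011), so every direction below is stated between labels.

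Markers of the labelled cell type were uneven. Of the contractile markers, the smooth muscle myosin gene Myh11 had 2, 2 and 2 reads in the Ad-Con libraries and 10, 7 and 2 in the Ad-PDK4 libraries, and Tagln had 12, 6 and 20 against 16, 4 and 14. Acta2, smooth muscle actin, went from 78.0 ± 0.9498 to 36.2 ± 2.40 FPKM (limma adjusted p = 5.3e-06). Msln, a mesothelial marker, was more abundant at 221 ± 7.22 against 115 ± 4.96 FPKM, and the summed FPKM of 5 mesothelial markers, most of it Msln, ran from 301 to 314 in Ad-Con and from 149 to 164 in Ad-PDK4. Members of this list went both ways: Upk3b and Krt19 were called lower and Lrrn4 was called higher (0.782 ± 0.135 against 1.90 ± 0.301 FPKM), and Wt1, under the limit for testing, had 54 reads in all in Ad-Con and 211 in Ad-PDK4. The 8 contractile markers, most of the sum being Acta2, summed to between 87.8 and 89.4 FPKM in Ad-Con and between 43.3 and 48.1 in Ad-PDK4. Smtn was at 8.32 ± 0.114 and 8.44 ± 0.445 FPKM. Mylk, Cnn1 and Des, under the limit for testing, had 478, 72 and 39 reads in all in Ad-Con. In Ad-PDK4 they had 79, 39 and 10, each without overlap. Lmod1 was at 0.720 ± 0.0944 and 0.570 ± 0.0679 FPKM, with overlapping groups (limma adjusted p = 0.357). Fibroblast markers (6 genes) summed to between 294 and 345 FPKM in Ad-Con and between 238 and 281 in Ad-PDK4, with Pdgfra at 20.5 ± 0.729 and 19.9 ± 0.804 FPKM. Of this list Dpt and Lum were called lower (log2FC -1.36 and -1.16), while Dcn rose from 90.1 ± 8.20 to 161 ± 19.0 FPKM (limma adjusted p = 0.00040). Macrophage markers (6 genes) summed to between 14.97 and 17.9 FPKM in Ad-Con and between 5.91 and 7.44 in Ad-PDK4, with Cd68 at 14.2 ± 1.78 and 4.24 ± 0.991 FPKM, while Ptprc and C1qa had no read in any library. Its other members with more than 1 read were higher in Ad-PDK4 without overlap, Csf1r with 69 against 179 reads in all (under the limit for testing) and Lyz2 at 1.51 ± 0.195 against 1.98 ± 0.250 FPKM (limma adjusted p = 0.0791). The 5 endothelial markers, most of the sum being Kdr, summed to between 0.617 and 0.798 FPKM in Ad-Con and between 0.885 and 1.18 in Ad-PDK4. Kdr was at 0.536 ± 0.110 and 0.919 ± 0.199 FPKM, without overlap (limma adjusted p = 0.0645). Pecam1, at 0.101 ± 0.0196 and 0.0651 ± 0.0513 FPKM, and Vwf, with 53 against 30 reads in all, were lower with overlapping groups. Cdh5 and Tek had 0 against 4 and 4 against 6 reads in all. The 5 pericyte markers, all under the limit for testing, summed to between 1.19 and 1.40 FPKM in Ad-Con and between 0.325 and 0.490 in Ad-PDK4. Most of the sum was Rgs5, with 168 against 54 reads in all, and Cspg4, with 411 against 105. Kcnj8 and Abcc9 went the other way, with 0 against 10 and 0 against 2 reads in all, and Higd1b had no read. In these bulk samples fewer cells of a type and less RNA per cell cannot be told apart, and the part of the marker differences in the values below was not tested.

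The 9 genes ranged from 36.5 FPKM (Rarg) down to 0.0552 FPKM (Aldh1a3) in the Ad-Con libraries. In the Ad-Con libraries the order by mean FPKM was Rarg, Aldh1a1, Rxra, Crabp1, Rara, Rarb, Cyp26b1, Crabp2 and Aldh1a3, and of neighbours in that order only Aldh1a1 and Rxra had overlapping ranges. In the Ad-PDK4 libraries it was Aldh1a1, Rarg, Rxra, Rara, Rarb, Crabp1, Cyp26b1, Aldh1a3 and Crabp2, with overlapping ranges for Rarb and Crabp1 and for Aldh1a3 and Crabp2. Between the groups Aldh1a1 and Rarg changed places at the top of the order, and Crabp1 was in the fourth place in the former and in the sixth in the latter. 6 of the 9 were tested, and Crabp2, Aldh1a3 and Cyp26b1 were under the limit. The tested gene nearest to that limit was Rarb, with a mean of 2.32 FPKM, and Cyp26b1 at 0.376 FPKM was the nearest under it. Of the 6 tested genes 2 were called, Crabp1 lower and Aldh1a1 higher, where 6.63% of all 13423 tested genes were called (3.95% higher and 2.68% lower). 4 of the 6 (Crabp1, Aldh1a1, Rarg and Rarb) had groups that did not overlap, where 54.3% of all tested genes did not overlap. Because the genes were picked on this contrast, these counts carry no weight as evidence.

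**Figure D1:**
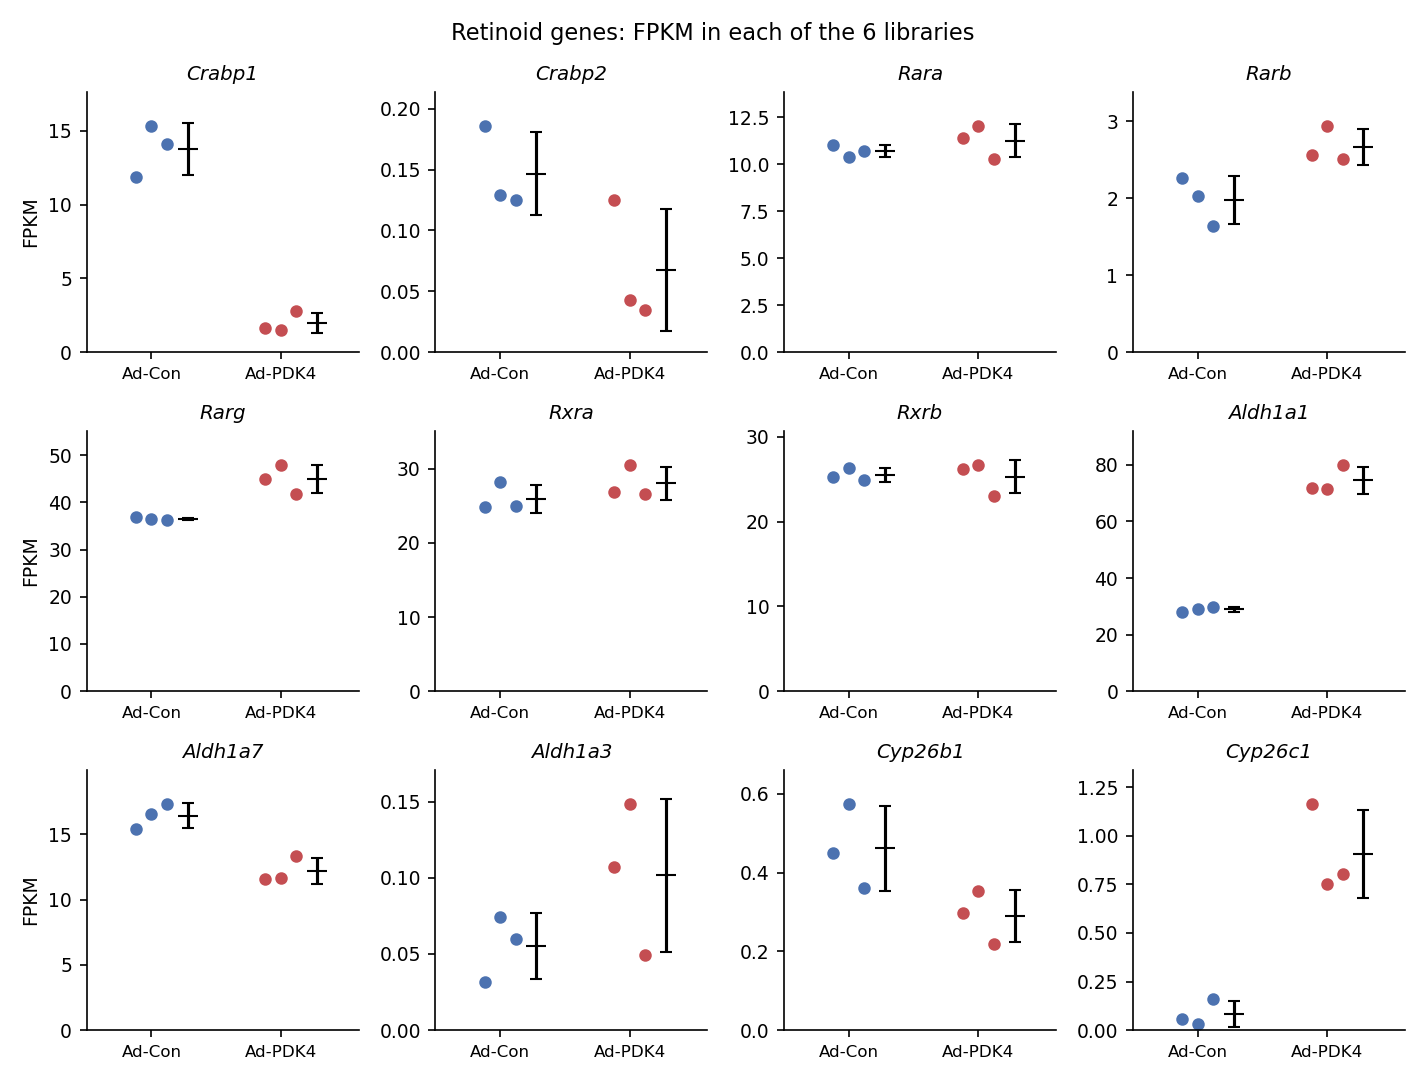
FPKM (vertical axis, from 0, a scale of its own in each panel) of the 9 genes and of the related genes Rxrb, Aldh1a7 and Cyp26c1 in the 3 Ad-Con (blue) and 3 Ad-PDK4 (red) libraries, each point a library, with the mean and SD as black bars. Crabp1 sits between 11.9 and 15.3 FPKM in Ad-Con and between 1.496 and 2.77 in Ad-PDK4, while Aldh1a1 sits between 28.03 and 29.8 and between 71.5 and 80.0.

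Crabp1 encodes the cytoplasmic retinoic acid binding protein that is thought to hold retinoic acid and pass it to CYP26 enzymes. It lies on chromosome 9, from 54764748 to 54773110 on the plus strand (GRCm38, ENSMUSG00000032291), in exons totalling 802 bases. Its level was 11.9, 15.3 and 14.1 FPKM in the Ad-Con libraries and 1.64, 1.496 and 2.77 FPKM in the Ad-PDK4 libraries. Every Ad-PDK4 library was well under every Ad-Con library, and the 6 values fell into separate ranges with a wide gap between them. These levels rested on 194, 216 and 205 reads against 24, 21 and 49. The mean went from 13.8 ± 1.75 to 1.97 ± 0.694 FPKM (SD, n = 3), a ratio of 0.143 and a log2FC of -2.79 (SE 0.23). By this difference Crabp1 stood in place 22 from the largest fall among the 13423 tested genes, and in place 3 among the 7731 with a mean of at least 5 FPKM. No annotated gene overlapped it, and none of its 50-base stretches occurred in another gene's transcripts.

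The sequence just upstream of Crabp1 is shown because this gene had the largest difference of the 9. It runs from 250 to 11 bases before the start annotated by RefSeq, at chr9:54764498-54764737 on the plus strand (GRCm38.p6), and no annotated exon lies in it. Capitals mark GC boxes, GGGCGG or its complement CCGCCC, the hexamer bound by Sp factors.
Crabp1: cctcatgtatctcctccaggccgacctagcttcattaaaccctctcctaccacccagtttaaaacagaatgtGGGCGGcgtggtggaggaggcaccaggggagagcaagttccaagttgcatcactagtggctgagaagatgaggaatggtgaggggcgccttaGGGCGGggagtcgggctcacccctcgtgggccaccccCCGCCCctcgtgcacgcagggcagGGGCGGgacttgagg
The window held 4 such hexamers and was 62.1% G and C, more than 77.2% of promoters. A GC box was found on either strand in 35.7% of all 32851 RefSeq promoter windows of 300 bases and in 7 of the 13 windows of these genes. RefSeq windows were at hand for 7 of the 9 genes, Crabp2 and Aldh1a3 being without an entry. Each match is a stretch of letters and was not tested as a binding site.

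Crabp2, which delivers retinoic acid to its nuclear receptors, was close to absent, with 5, 3 and 3 reads in the Ad-Con libraries and 3, 1 and 1 in the Ad-PDK4 libraries. Its levels were 0.186, 0.129 and 0.125 against 0.125, 0.0432 and 0.0342 FPKM, so the highest Ad-PDK4 library and the lowest Ad-Con library were level at this depth. The ratio of its summed reads, scaled to library size, was 0.441 with an exact 95% interval from 0.120 to 1.38, which covers counting error only. Crabp1 accounted for 98.9% ± 0.394 of the summed FPKM of the pair in Ad-Con and for 96.3% ± 3.01 in Ad-PDK4. The sum of both went from 13.9 ± 1.72 to 2.04 ± 0.672 FPKM.

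Aldh1a1, a retinaldehyde dehydrogenase that makes retinoic acid, had the opposite direction. It lies on chromosome 19, from 20492715 to 20643462 on the plus strand (GRCm38, ENSMUSG00000053279). Its level was 28.03, 29.0 and 29.8 FPKM in the Ad-Con libraries and 71.99, 71.5 and 80.0 FPKM in the Ad-PDK4 libraries. The 3 Ad-PDK4 libraries all lay far above the Ad-Con libraries, and within each group the values stood close together. Each library held 2516 reads of it or more, and the mean went from 28.9 ± 0.874 to 74.5 ± 4.76 FPKM (SD, n = 3). The ratio was 2.57 and the log2FC 1.36 (SE 0.06), in place 408 from the largest rise among all tested genes. A pair of genes overlaps its introns on the opposite strand, and they held 73 reads in all.

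Aldh1a7, a close paralog that neighbours Aldh1a1 at 20692953 to 20727562 on the minus strand of chromosome 19, was lower instead. Its level was 15.4, 16.6 and 17.3 FPKM in Ad-Con and 11.6, 11.7 and 13.4 FPKM in Ad-PDK4, without overlap. It fell from 16.4 ± 0.978 to 12.2 ± 1.001 FPKM (SD, n = 3), a log2FC of -0.43 (SE 0.08, limma adjusted p = 0.0029). Of the 50-base stretches of the Aldh1a1 transcript 6.54% also occur in Aldh1a7, and 7.49% of those of Aldh1a7 in Aldh1a1, so a small part of their reads could be counted on either. As a share of the summed FPKM of Aldh1a1, Aldh1a2, Aldh1a3 and Aldh1a7, Aldh1a1 went from 63.4% ± 0.746 to 85.6% ± 0.224 and Aldh1a7 from 35.9% ± 0.652 to 14.0% ± 0.225. That sum went from 45.7 ± 1.90 to 87.0 ± 5.79 FPKM.

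The upstream sequences of both paralogs are set side by side because these neighbours differed in opposite directions. Each runs from 250 to 11 bases before a RefSeq start (GRCm38.p6), for Aldh1a1 the downstream of 2 annotated starts, at chr19:20601718-20601957 on the plus strand, and for Aldh1a7 at chr19:20727567-20727806 on the minus strand. Capitals mark the longest run of bases that both windows share.
Aldh1a1: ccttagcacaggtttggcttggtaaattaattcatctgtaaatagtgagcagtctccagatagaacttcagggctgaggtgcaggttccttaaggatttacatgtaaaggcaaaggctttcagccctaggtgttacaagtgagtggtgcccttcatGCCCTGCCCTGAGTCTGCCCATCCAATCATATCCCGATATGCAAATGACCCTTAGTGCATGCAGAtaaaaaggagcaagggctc
Aldh1a7: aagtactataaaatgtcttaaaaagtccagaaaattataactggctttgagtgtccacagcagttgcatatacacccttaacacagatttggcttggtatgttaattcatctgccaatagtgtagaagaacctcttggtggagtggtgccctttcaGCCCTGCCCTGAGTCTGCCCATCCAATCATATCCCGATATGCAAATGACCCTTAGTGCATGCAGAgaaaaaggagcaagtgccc
The shared run was 65 bases long and ended 30 bases upstream of both starts, and over the 250 bases before each start 160 of the 175 bases that could be aligned (91.4%) were identical. The windows were 46.7% and 43.3% G and C.

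Aldh1a3 and Aldh1a2, the other enzymes of the family, were barely expressed. Aldh1a3 (chromosome 7) had 3, 6 and 5 reads in the Ad-Con libraries and 9, 12 and 5 in the Ad-PDK4 libraries, with overlapping groups. Its read ratio was 1.801, with an exact 95% interval from 0.907 to 3.73. Aldh1a2 had 10, 14 and 11 against 8, 5 and 14 reads, again with overlapping groups and an interval of the ratio from 0.436 to 1.27. Both intervals cover counting error only, and both genes were under the limit for testing.

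Cyp26b1, which breaks down retinoic acid, was present at a low level. It had 0.450, 0.575 and 0.361 FPKM in the Ad-Con libraries and 0.298, 0.352 and 0.220 FPKM in the Ad-PDK4 libraries, on 49, 54 and 35 against 29, 33 and 26 reads. All 3 Ad-PDK4 libraries were under the Ad-Con libraries, the nearest by a small margin. The mean went from 0.462 ± 0.107 to 0.290 ± 0.0665 FPKM, and the read ratio was 0.618 with an exact 95% interval from 0.468 to 0.814, which covers counting error only.

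Cyp26c1, a further enzyme of that family, was lower than Cyp26b1 in Ad-Con and higher than it in Ad-PDK4. It is on chromosome 19, from 37685581 to 37693398, and had 2, 1 and 5 reads in the Ad-Con libraries and 37, 23 and 31 in the Ad-PDK4 libraries. Its level of 0.0822 ± 0.0666 against 0.906 ± 0.224 FPKM gave a mean just under the limit for testing, and the read ratio was 11.03 with an exact 95% interval from 5.37 to 26.3. Fitted without that limit, over 25202 genes, its log2FC was 2.50 (limma adjusted p = 0.0024), and 4.88% of the genes were called in that fit. With each library left out in turn, an addition made after the values were seen, it ranged from 2.30 to 2.78. Cyp26a1 had 1, 0 and 0 reads against 4, 1 and 3, a ratio of 7.76 with an interval from 1.04 to 344. This interval and that of Cyp26c1 cover counting error only. In the fit without the limit, the log2FC of Cyp26a1 was 0.68 (limma adjusted p = 0.138). As a share of the summed FPKM of the CYP26 genes, Cyp26b1 went from 82.8% ± 12.6 to 23.3% ± 6.73 and Cyp26c1 from 15.4% ± 13.2 to 70.9% ± 4.07, and the sum itself went from 0.553 ± 0.0474 to 1.27 ± 0.270 FPKM.

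**Figure D2:**
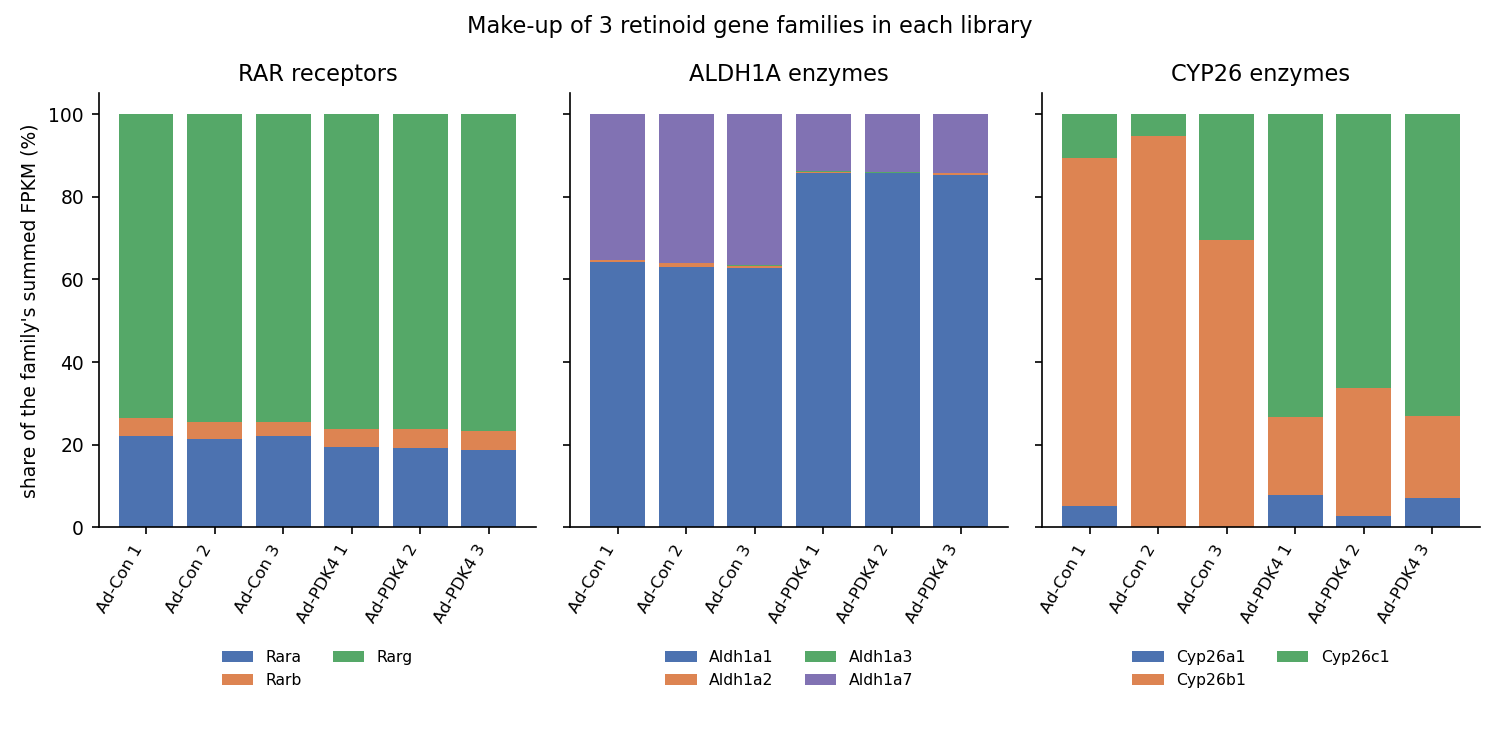
Share in percent of the summed FPKM of the RAR, ALDH1A and CYP26 families held by each member (colours) in each of the 6 libraries. Rarg holds 73.5% to 76.6% of the RAR sum throughout, Aldh1a1 goes from 62.8% to 64.2% in Ad-Con to 85.4% to 85.8% in Ad-PDK4, and in the CYP26 family, which rests on few reads, Cyp26b1 is the larger part in Ad-Con and Cyp26c1 in Ad-PDK4.

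The receptors differed less. Rarg, the most abundant of the RAR receptors, lies on chromosome 15 from 102234938 to 102257517 and had 36.8, 36.4 and 36.3 FPKM in the Ad-Con libraries and 45.0, 48.0 and 41.9 FPKM in the Ad-PDK4 libraries. The Ad-Con libraries were almost equal, and all Ad-PDK4 libraries lay above them. The mean went from 36.5 ± 0.259 to 44.9 ± 3.04 FPKM, a log2FC of 0.30 (SE 0.06). Rarb, a receptor that retinoic acid itself induces in many cells, had 2.26, 2.03 and 1.64 FPKM against 2.56, 2.94 and 2.51 FPKM. Its groups did not overlap either, and the mean went from 1.98 ± 0.310 to 2.67 ± 0.236 FPKM, a log2FC of 0.42 (SE 0.14). This value is uncertain, since 1793 of the 5265 exonic bases of Rarb are shared with Top2b on the opposite strand, which held 20742 reads in all, and whether counting used strand is not given in the sources used here.

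Rara had 11.04, 10.4 and 10.7 FPKM in the Ad-Con libraries and 11.4, 12.03 and 10.3 FPKM in the Ad-PDK4 libraries, with overlapping groups. Its log2FC of 0.07 (SE 0.07) was under 0 with quantile normalization (-0.004). Rxra, the partner receptor, had 24.8, 28.1 and 24.9 FPKM against 26.9, 30.5 and 26.6 FPKM, also with overlapping groups and a log2FC of 0.11 (SE 0.08). Its paralog Rxrb stood at nearly the same level, 25.5 ± 0.784 against 25.3 ± 1.98 FPKM, with a log2FC of -0.01 (SE 0.07, limma adjusted p = 0.898), and its sign turned under 3 alternatives. Rxrg had 0 reads in every library. The summed FPKM of the RAR genes went from 49.2 ± 0.785 to 58.8 ± 4.12, and of it Rarg held 74.2% ± 0.653 and 76.4% ± 0.198, Rara 21.8% ± 0.432 and 19.1% ± 0.262, and Rarb 4.02% ± 0.579 and 4.54% ± 0.174.

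RAR and RXR pairs bind direct repeats of a hexamer, and the windows of 300 bases around RefSeq starts were searched on both strands for pairs of half-sites in the same orientation with 5, 2 or 1 bases between them. A half-site was AGGTCA or the variant GGGTCA, and the relaxed form AGTTCA or its variant GGTTCA counted as well. Repeats spaced by 5 bases stood in 32 of the 32851 promoters (0.0974%), those spaced by 2 in 0.268% and those spaced by 1 in 0.222%. Among the 13 windows of these genes the only match was 1 repeat spaced by 5 bases, upstream of Rarb, and among 87 windows of other pathway genes and known targets a repeat spaced by 5 bases was upstream of Cyp26a1 and 1 spaced by 1 base upstream of Bco1, a carotenoid oxygenase gene. The pair spaced by 5 bases is printed with the hexamers in capitals, Rarb at chr14:16575513-16575529 and Cyp26a1 at chr19:37697776-37697792, both 5′ to 3′ on the minus strand as found (GRCm38.p6).
Rarb: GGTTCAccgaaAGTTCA
Cyp26a1: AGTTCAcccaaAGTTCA
The Rarb match spanned 53 to 37 and the Cyp26a1 match 32 to 16 bases upstream of the annotated start, and the Rarb match lies in an annotated Rarb exon that starts further upstream. No such repeat was in the windows of Crabp1, Aldh1a1 or Cyp26b1, which says only that these letters are not within them.

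**Figure D3:**
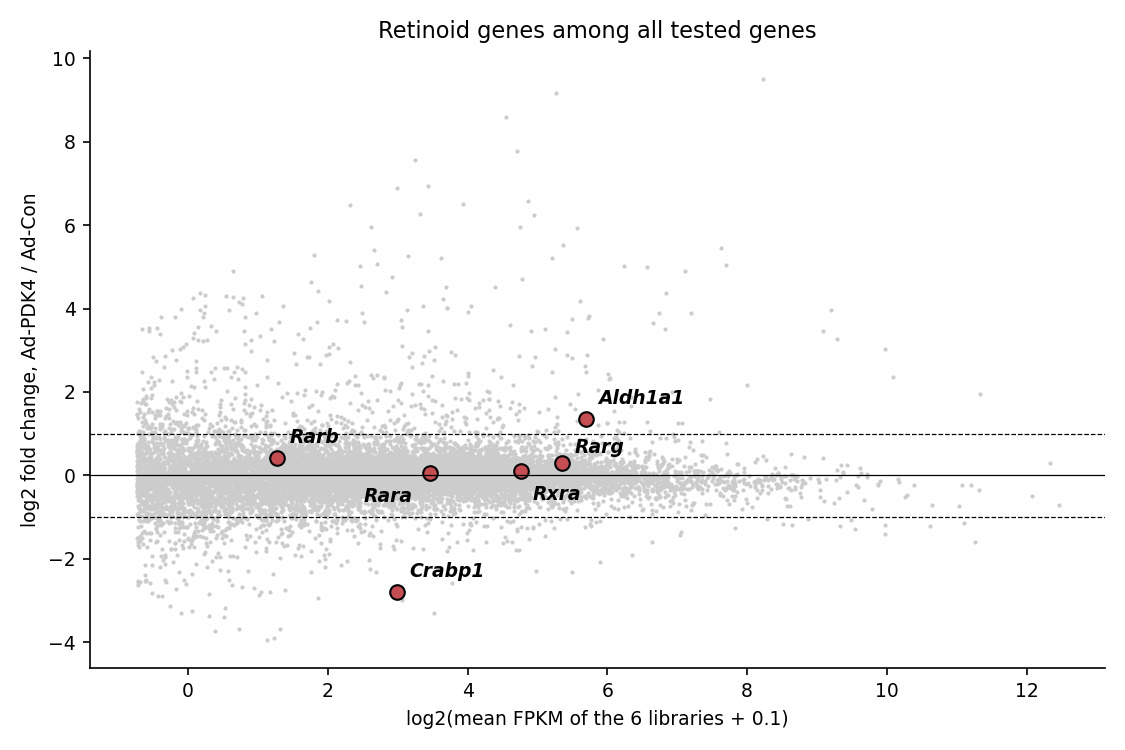
Log2 fold change (Ad-PDK4 over Ad-Con, vertical axis) against log2(mean FPKM of the 6 libraries + 0.1) (horizontal axis) for all 13423 tested genes in grey and the 6 tested genes of the 9 in red, with dashed lines at a fold of 2. Crabp1 at -2.79 lies near the lower edge of the cloud and Aldh1a1 at 1.36 above the upper line, while the 4 receptors lie between 0.07 and 0.42.

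Of 65 other genes of the retinoid pathway 42 were tested, and 15 had at most 3 reads in every library. 9 rose and 9 fell at a limma adjusted p below 0.05, together 42.9% of those tested, where 42.7% of all tested genes passed (21.8% higher and 20.8% lower). Their median log2FC was 0.01, and over all tested genes it was -0.003. Thus the share that changed was close to that of the whole table. Of 2 tested genes listed under degradation 1 rose and 1 fell, and of 2 tested receptors 1 rose. The gene listed under degradation that rose was Cyp1b1, from 94.9 ± 2.68 to 115 ± 8.41 FPKM (limma adjusted p = 0.0075). It is outside the CYP26 family and is named here after its values were seen. Its place under degradation is only how the list grouped it, so these counts do not give a direction of retinoic acid breakdown. Whether Cyp1b1 makes or breaks down retinoic acid in these cells was not tested. 1 of the 42 was called, Cyp2s1, a cytochrome P450 that can oxidise retinoic acid, which fell from 4.76 ± 0.252 to 2.17 ± 0.157 FPKM (log2FC -1.10, SE 0.09, limma adjusted p = 5.8e-05).

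Among 8 tested genes of uptake, storage and transport 1 rose and 1 fell. Lpl, the lipoprotein lipase through which cells take up retinyl esters, rose from 0.480 ± 0.0363 to 0.960 ± 0.169 FPKM (log2FC 0.86, limma adjusted p = 0.018). It no longer passed without Ad-PDK4 replicate 2 or without Ad-PDK4 replicate 3, and its log2FC was 0.40 with a pseudocount of 1. Fabp5, a fatty acid binding protein that can carry retinoic acid, was at 11.4 ± 1.44 and 9.51 ± 0.395 FPKM (limma adjusted p = 0.0694). Stra6, the retinol uptake receptor, was under the limit for testing at 30, 38 and 37 against 12, 16 and 12 reads, all Ad-PDK4 libraries being under all Ad-Con libraries. Its read ratio was 0.369 with an exact 95% interval from 0.250 to 0.536, and without the limit the limma adjusted p was 0.0573.

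Of 12 tested genes grouped under synthesis 2 rose and 4 fell. The group holds enzymes of both directions, so these counts do not give a direction of retinoic acid synthesis. Dhrs3, which rose, and Dhrs4, which fell, both act on retinaldehyde in reverse. Dhrs4, a retinaldehyde reductase, fell from 27.8 ± 2.45 to 17.4 ± 0.971 FPKM (log2FC -0.68, limma adjusted p = 0.00029). Rdh10, the main retinol dehydrogenase of development, fell from 4.95 ± 0.202 to 4.14 ± 0.181 FPKM (log2FC -0.25, limma adjusted p = 0.026). Dhrs3, which turns retinaldehyde back to retinol, rose from 29.2 ± 2.44 to 35.3 ± 2.46 FPKM (log2FC 0.28, limma adjusted p = 0.022). Neither Rdh10 nor Dhrs3 was called, and they no longer passed the adjusted p under 6 and 5 of their alternatives.

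All 18 coregulators on the list were tested, of which 4 rose and 3 fell, each by less than 0.5 on the log2 scale. Tbl1x, part of the NCoR corepressor complex, rose from 24.7, 25.4 and 24.9 FPKM to 33.1, 33.1 and 35.8 FPKM (log2FC 0.44, limma adjusted p = 0.00037). Ncoa2, a coactivator of nuclear receptors, rose from 7.55 ± 0.339 to 9.81 ± 0.508 FPKM (log2FC 0.37, limma adjusted p = 0.0029). Hdac3, the deacetylase of the corepressor complex, was lower with a log2FC of -0.42 (limma adjusted p = 0.00046) and is named here after its values were seen.

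**Figure D4:**
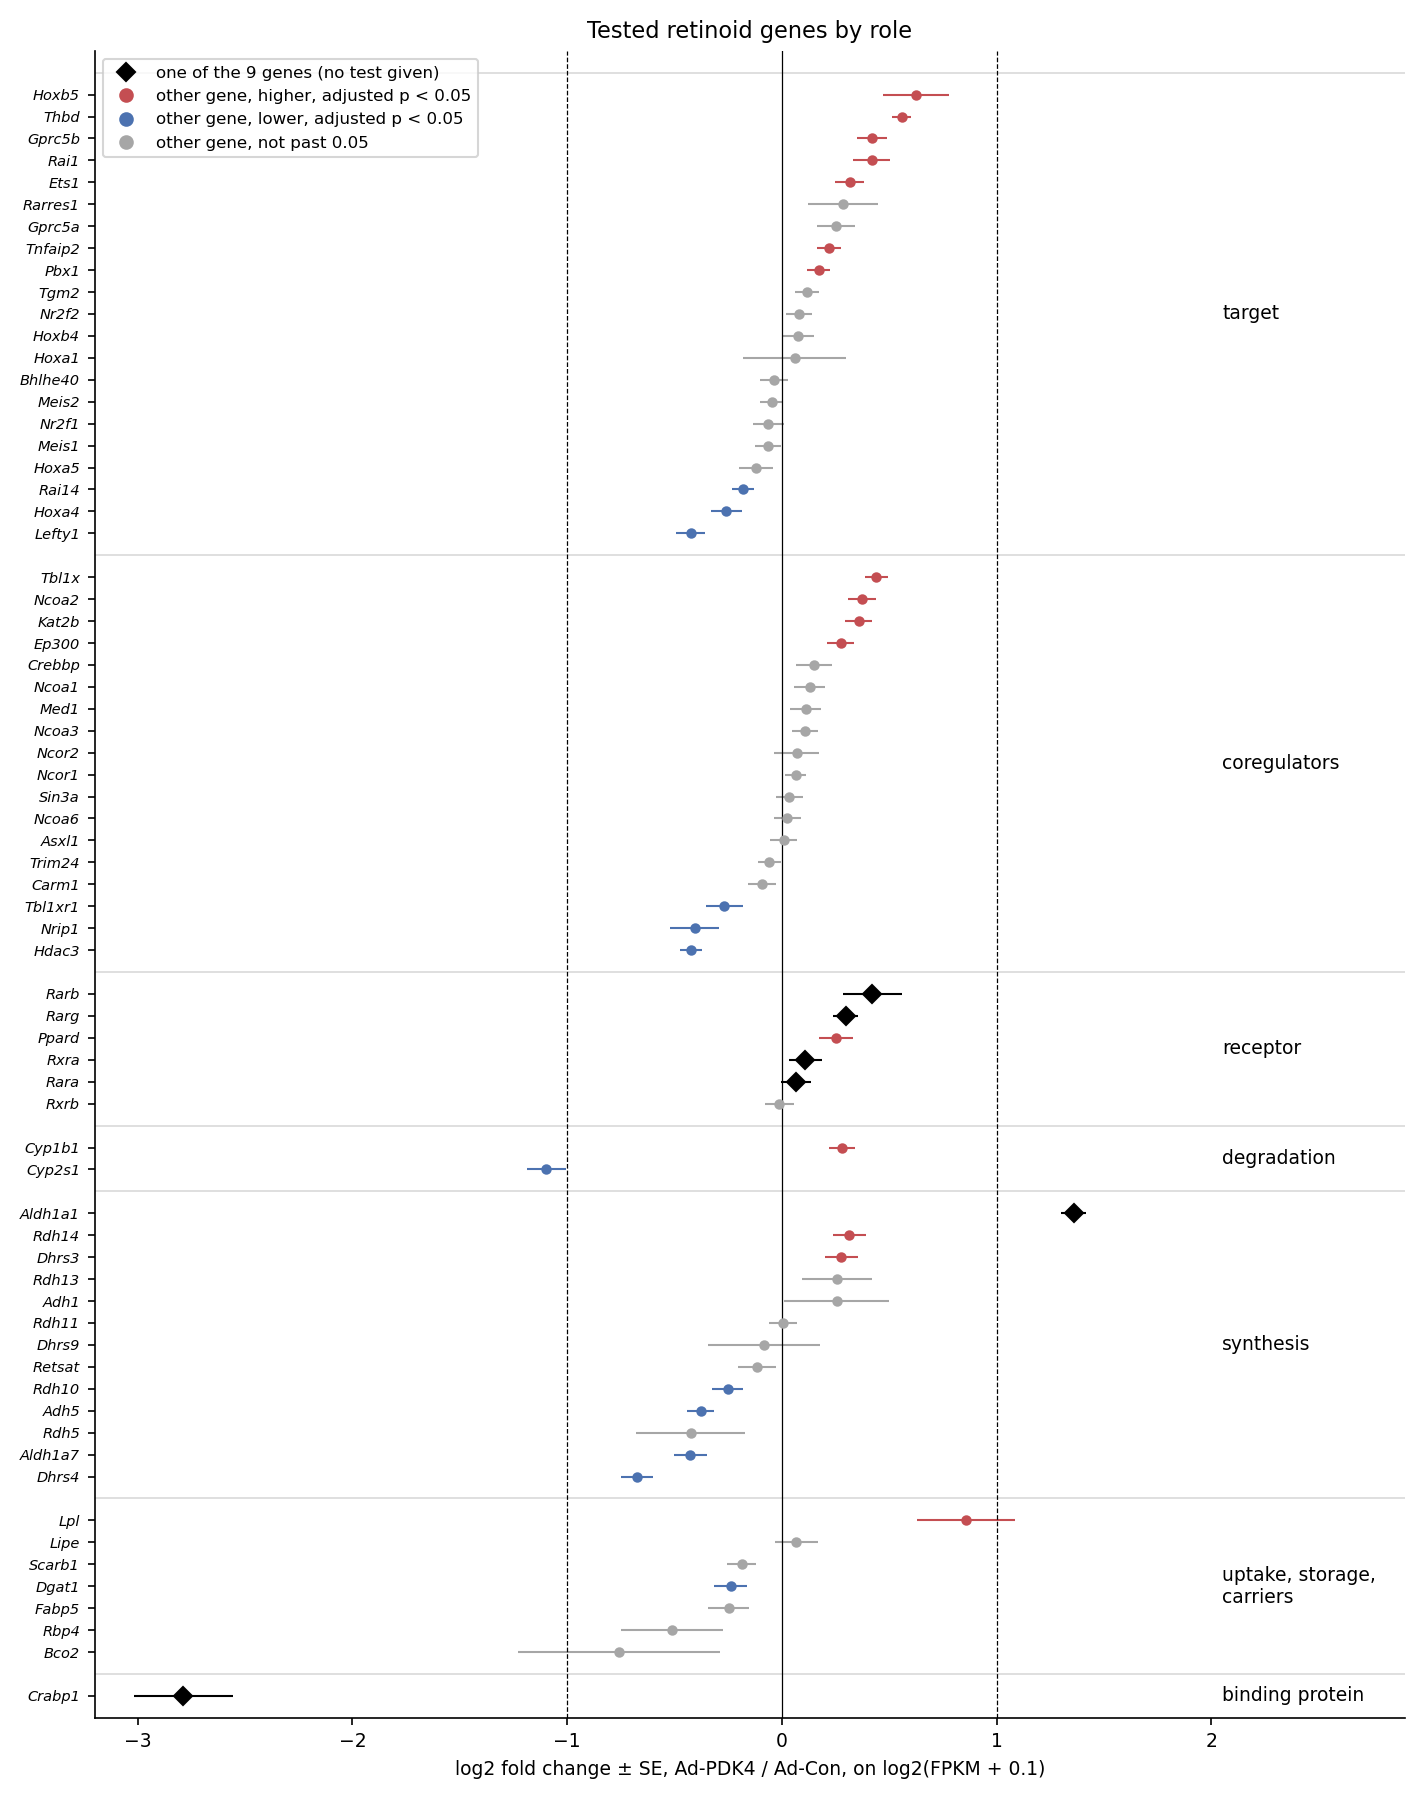
Log2 fold change with its SE (horizontal axis, Ad-PDK4 over Ad-Con) of the tested retinoid genes but 1, grouped by role, with the 6 tested genes of the 9 as black diamonds, other genes at a limma adjusted p below 0.05 in red (higher) or blue (lower) and the rest in grey, and dashed lines at a fold of 2. Crabp1, Aldh1a1 and Cyp2s1 lie beyond the dashed lines, and no coregulator or target does.

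A further list held 30 genes known to be induced by retinoic acid in other cells. It left out the 9 genes, among them Rarb, and the other pathway genes, also where retinoic acid induces them. Of the 30 genes 21 were tested. 7 rose and 3 fell, together 47.6% of those tested, near the 42.7% of all tested genes (21.8% higher and 20.8% lower), and none was called, where 6.63% of all tested genes were. Their median log2FC was 0.08, and 19 of the 21 lay within 0.5 of 0 on the log2 scale. The largest rises were in Hoxb5, a homeobox gene, from 2.94 ± 0.298 to 4.64 ± 0.982 FPKM (log2FC 0.62, limma adjusted p = 0.013), in Thbd, the anticoagulant receptor thrombomodulin, from 68.3 ± 1.92 to 101 ± 1.53 FPKM (0.56, limma adjusted p = 4.8e-05), and in the receptor gene Gprc5b, from 23.8 ± 1.99 to 31.8 ± 1.62 FPKM (0.42, limma adjusted p = 0.0024). The largest falls were in Lefty1, a secreted inhibitor of Nodal, from 9.40 ± 0.566 to 6.97 ± 0.237 FPKM (-0.43, limma adjusted p = 0.0017), in Hoxa4 from 8.12 ± 0.458 to 6.76 ± 0.379 FPKM (-0.26, limma adjusted p = 0.021), and in Rai14 from 18.9 ± 0.478 to 16.7 ± 0.442 FPKM (-0.18, limma adjusted p = 0.022).

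The genes most like Crabp1 over the 6 libraries, by Pearson correlation of log2(FPKM + 0.1) among 7726 genes with a mean of at least 5 FPKM, were Suclg2 (0.999), Oxct1, Anxa4 and Sun1 (0.998 each) and Ndufa4 (0.997). Suclg2, a subunit of succinyl-CoA ligase, had 23.5, 24.3 and 23.9 FPKM in Ad-Con and 15.1, 14.7 and 16.9 FPKM in Ad-PDK4, so that, as for Crabp1, the Ad-PDK4 library 3 was the highest of its group and the Ad-Con library 1 the lowest. The differences of these genes were far smaller than that of Crabp1, with log2FC values from -0.67 for Ndufa4, a subunit of the respiratory chain, to -0.14 for Sun1, a protein of the nuclear envelope. The 6 libraries form 2 groups, and 1143 of the genes compared had a correlation above 0.9, so such a value marks mostly the direction between groups.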

How the data were processed

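RNA-seq libraries of 6 samples (3 Ad-Con, 3 Ad-PDK4) were grouped by the treatment label. The deposited table gave FPKM per gene and library, computed by the authors, with the gene length they used (the other value taken from it). The submitters' processing notes name CASAVA 1.8, fastp, HISAT2 2.0.5, featureCounts 1.5.0-p3, DESeq2 1.20.0 and GRCm39. Coordinates, however, matched GENCODE M21 (GRCm38) for 98.3% of the 54409 shared identifiers and are given as deposited. The labels name a SMARTER kit and the study's methods a NEBNext kit. Strand setting is not given in the sources used here. FPKM times length gave whole reads for 100% of values (tolerance 0.01 reads). The table holds FPKM, so a count model was not used for the tests.

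Differences were fitted with limma 3.58.1 (R 4.3.3, trend and robust) on log2(FPKM + 0.1) over the 13423 genes with a mean of at least 0.5 FPKM, with Benjamini-Hochberg adjustment over all of them, and tested on simulated data. Library pairs within a group differed beyond sampling noise (chi-square per degree of freedom 3.99 to 10.9), so none was counted as a duplicate. Read ratios were scaled to the library sizes that the FPKM values imply, which follow median-of-ratios size factors. Their intervals are exact binomial and cover counting error only. Genes named were the 9, fixed genes of the pathway and labels, the called genes and the 3 largest rises and falls of each list, the 5 genes most like Crabp1, and defining markers. 1 tested gene of the pathway is counted but not reported here. The 9 genes and the lists were chosen with earlier results of these data known. Alternatives were other pseudocounts, filters and scalings, limma-voom on the recovered reads, a replicate block and each library left out.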

Additional observations from a re-analysis of the deposited data

How the results depend on the processing

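Crabp1 and Aldh1a1 kept their directions under all 16 alternatives, at log2 fold changes from -3.05 to -2.33 (the last with a pseudocount of 1) and from 1.31 to 1.40. Among these alternatives, median-of-ratios scaling repeated a scaling already in the deposited values, so its nearly identical result carries no weight. Called genes numbered 890 in all, 514 with a pseudocount of 1 and 372 with a minimum mean of 5 FPKM, the latter with fewer genes tested. With a replicate left out they numbered 866 to 923, the other pathway genes past the adjusted p 12 to 16 instead of 18, and the targets 7 to 10 instead of 10. The 18 fell to 12 without replicate 2 of either group. limma-voom on the recovered reads called 954 genes. Same-numbered libraries did not deviate together (correlations -0.046, -0.0311 and -0.00129), and with the replicate number as a block 883 genes were called, 15 other pathway genes passed (9 higher, 6 lower) and 11 targets. The sign of Rxrb turned from -0.013 to 0.028 with TPM, and with a replicate left out it ranged from -0.052 to 0.053. The cause was not tested. Lpl no longer passed without Ad-PDK4 replicate 2 (0.85) or 3 (0.75). Hoxa4 and Rai14 each failed the adjusted p under 4 alternatives, and Fabp5 passed it under 4. For Cyp26c1, fitted without the filter, 8 alternatives added after seeing the data gave 2.30 to 3.42. With 3 samples a group and 5 or fewer reads per Ad-Con library for Crabp2 and Cyp26c1, depth limits what could be seen of the lowest genes.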

Other observations

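The neighbours of Crabp1 on chromosome 9, chosen after its values were seen, moved in both directions. Within 500 kb, 12 genes were tested, of which 2 rose, 3 fell and 7 did not pass a limma adjusted p of 0.05, with a median log2 fold change of 0.12. Of all tested genes 42.7% passed that threshold and 6.63% were called, so 5 of 12 passing and 1 of 12 called is near the background. The nearest, Wdr61, 30.2 kb away, was at 9.73 ± 0.209 and 9.39 ± 0.366 FPKM (limma adjusted p = 0.505). Acsbg1, an acyl-CoA synthetase 103 kb away, was the only called gene of the 12 and went from 1.61 ± 0.368 to 0.518 ± 0.160 FPKM (log2 fold change -1.48, limma adjusted p = 0.0024). Cib2, a calcium-binding protein gene, fell from 10.6 ± 1.30 to 5.80 ± 0.325 FPKM (-0.85, limma adjusted p = 0.00036), and the heat shock cochaperone gene Dnaja4 rose from 3.59 ± 0.258 to 5.43 ± 0.221 FPKM (0.59, limma adjusted p = 0.00085).

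Near Aldh1a1 on chromosome 19 only Anxa1 and Aldh1a7 were tested within 500 kb. Anxa1, the annexin gene 102 kb away, rose from 244 ± 13.7 to 322 ± 26.2 FPKM (log2 fold change 0.39, limma adjusted p = 0.0031), while Aldh1a7 fell.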
